A study of Mus musculus with 14 samples.

Results

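Marco, Siglec1 and Cd209b, surface receptors of the macrophages that line the splenic marginal zone, were followed in 14 mouse tissue sections by spatial transcriptomics. The 3 genes were chosen by symbol, from 32589 features measured in 6 sections of purchased mice and 19465 features measured in 8 sections of a C1qa cross. Each was present once in both feature tables.

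The marginal zone is the sheet of tissue between the lymphoid white pulp and the blood-filled red pulp of the rodent spleen, where blood is released and screened. Marco, a class A scavenger receptor, and Cd209b, the C-type lectin SIGN-R1 that binds bacterial polysaccharides, mark its outer macrophages. Siglec1, the sialic acid-binding lectin sialoadhesin (CD169), marks the metallophilic macrophages at the inner border next to the follicles. Marco is also made by macrophages of the liver, and Siglec1 by macrophages of several organs. Cd209b has also been described as a receptor for C1q, the complement protein whose A chain is encoded by C1qa. Upkeep of these macrophages is known to depend on lymphotoxin signals from B cells and on the liver X receptor Nr1h3.

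Sections came from 10 groups. Purchased wild-type C57BL/6 mice gave 1 section each of adult spleen, of fetal liver at E13.5 and at E14.5, and of bone marrow at P8, at 89 weeks and, kept in EDTA before embedding, at 6 months. Mice heterozygous for a constitutive C1qa deletion were intercrossed. Their wild-type and C1qa knockout offspring gave 2 sections per group of E14.5 fetal liver, numbered 2 and 4, and 2 per group of spleen at 3 months of age by the labels (the study text gives a younger age), numbered 1 and 2.

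Visium captures RNA, here through gene-specific probes on formalin-fixed tissue, on a grid of spots that each cover several cells. Spots within the tissue that had at least 1000 detected genes were kept, 15 to 2320 per section, with 37167 to 56182915 unique molecules (UMIs) in all. Levels are given as CPM, the counts of a gene scaled to all UMIs of the kept spots. Probes differ in efficiency, so that levels were compared between sections and not between genes. The EDTA bone marrow, with 15 spots, was too shallow to be read for these genes. Wild-type spleen 2 was the shallowest of the spleens, with a median of 2098 UMIs per spot against 7764 to 13914.5 in the other 3 spleens of the cross. The labels held for the deleted gene: C1qa stood at 1 and 1 counts in the knockout fetal livers and at 2 and 1 in the knockout spleens, against 25.8 to 269 CPM in the wild-type sections of the cross. Wild-type spleen 1 stood apart in summed erythroid genes, with 42232 CPM against 5519 to 13711 in the other spleens of the cross, and knockout spleen 2 in summed pancreas genes, with 28188 CPM against 69.5 to 4140.5. Purchased and cross sections differed in mice, features and processing, and no test was made between them.

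Marco lies on chromosome 1 (chr1:120474538-120505024), Siglec1 on chromosome 2 (chr2:131067801-131086778) and Cd209b on chromosome 8 (chr8:3917655-3926841) of GRCm38, the build named mm10 in the labels. The 250 bases before the start of Marco (chr1:120505025-120505274) and of Cd209b (chr8:3926842-3927091), both on the minus strand, are shown. Siglec1 is named only, because no promoter sequence was at hand for it. Letters are 5′ to 3′ from RefSeq (GRCm38.p6), and capitals mark a match to GAGGAA, a core motif of the myeloid factor PU.1.
Marco: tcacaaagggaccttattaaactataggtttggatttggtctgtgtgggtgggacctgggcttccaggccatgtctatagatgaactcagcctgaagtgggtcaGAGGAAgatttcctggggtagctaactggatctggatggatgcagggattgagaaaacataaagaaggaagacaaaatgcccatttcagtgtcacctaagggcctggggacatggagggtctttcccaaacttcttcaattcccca
Cd209b: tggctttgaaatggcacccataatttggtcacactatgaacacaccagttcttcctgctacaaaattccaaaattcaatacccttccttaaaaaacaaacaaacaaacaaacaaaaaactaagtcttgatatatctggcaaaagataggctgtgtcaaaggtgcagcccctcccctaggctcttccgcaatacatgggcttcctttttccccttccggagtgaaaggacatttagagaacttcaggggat
On both strands, GAGGAA occurred once in the Marco window, as it did at least once in 23.3% of 32851 promoter windows of this length, and it had no match in that of Cd209b. TGCTGAC from the site of large MAF factors (3.81% of windows), an interferon-stimulated response element motif (2.98%) and a direct repeat bound by liver X receptors (0.0152%) had no match in either window. Such a match is a run of letters and was not tested as a binding site.

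Across tissues, Cd209b was the most spleen-bound of the 3 genes. It was counted at 53.4 CPM in the adult spleen. In the cross it was counted at 28.4 CPM in wild-type spleen 1, 24.8 CPM in wild-type spleen 2, 23.9 CPM in knockout spleen 1 and 19.4 CPM in knockout spleen 2. All 5 spleens lay above every readable section of the other tissues. The E14.5 and E13.5 fetal livers of purchased mice held 0 Cd209b counts, and 3 counts would have been 0.0534 and 0.0783 CPM. Set against that floor, the adult spleen was 1000.6-fold and 682.7-fold higher. The upper 95% Poisson limits of these 0 counts lay above the floor, at 0.0657 and 0.0962 CPM. The 4 fetal livers of the cross held 0.643 to 2.14 CPM, or 13 to 36 counts each, and the P8 and 89-week bone marrows held 1 count each. Of the 7 members of the CD209 gene family, 4 were listed at 0 in each purchased fetal liver, and near-identical family members may share probes, which was not tested. In bulk sums of this kind, fewer cells of a type and less RNA per cell cannot be told apart.

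Siglec1 was low in all readable sections, and highest in the spleens of the cross. It was counted at 15.9 CPM in wild-type spleen 1, 11.4 CPM in wild-type spleen 2, 10.6 CPM in knockout spleen 1, 10.5 CPM in knockout spleen 2 and 4.19 CPM in the adult spleen. The 4 fetal livers of the cross held 1.04 to 3.15 CPM, the purchased fetal livers 0.427 and 0.183 CPM at E14.5 and E13.5, and the P8 and 89-week bone marrows 0.364 and 1.19 CPM. The adult spleen, with 95% Poisson limits of 3.22 to 5.34 CPM, overlapped knockout fetal liver 4, with limits of 2.36 to 4.12 CPM. These neighbours in the order of levels come from the purchased and the cross set, which differed in processing, so that their order was not read.

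Marco was abundant in spleen and in most fetal livers. It was counted at 157 CPM in the adult spleen, 226 CPM in wild-type spleen 1, 98.9 CPM in wild-type spleen 2, 117 CPM in knockout spleen 1 and 134 CPM in knockout spleen 2. The E14.5 and E13.5 fetal livers of purchased mice held 96.7 and 74.1 CPM, and those numbered 2 in the cross held 112 CPM in wild type and 108 CPM in knockout. The fetal livers numbered 2 lay within the range of the spleens of the cross, and the purchased fetal livers lay below the purchased adult spleen. By contrast, the fetal livers numbered 4 held 8.56 CPM in wild type and 14.5 CPM in knockout, and the P8 and 89-week bone marrows 6.598 and 3.79 CPM. The order of levels ran from wild-type spleen 1 at the top through the adult spleen and the knockout spleens to the fetal livers numbered 2, wild-type spleen 2 and the purchased fetal livers. Neighbours from knockout spleen 1 down to the E14.5 fetal liver lay closer together than wild-type spleens 1 and 2 lay to each other. This order mixes the purchased and the cross set, so that it was not read between them. The 95% Poisson limits of wild-type spleen 2 (89.7 to 108.9 CPM) and the E14.5 fetal liver (94.1 to 99.3 CPM) overlapped.

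**Figure D1:**
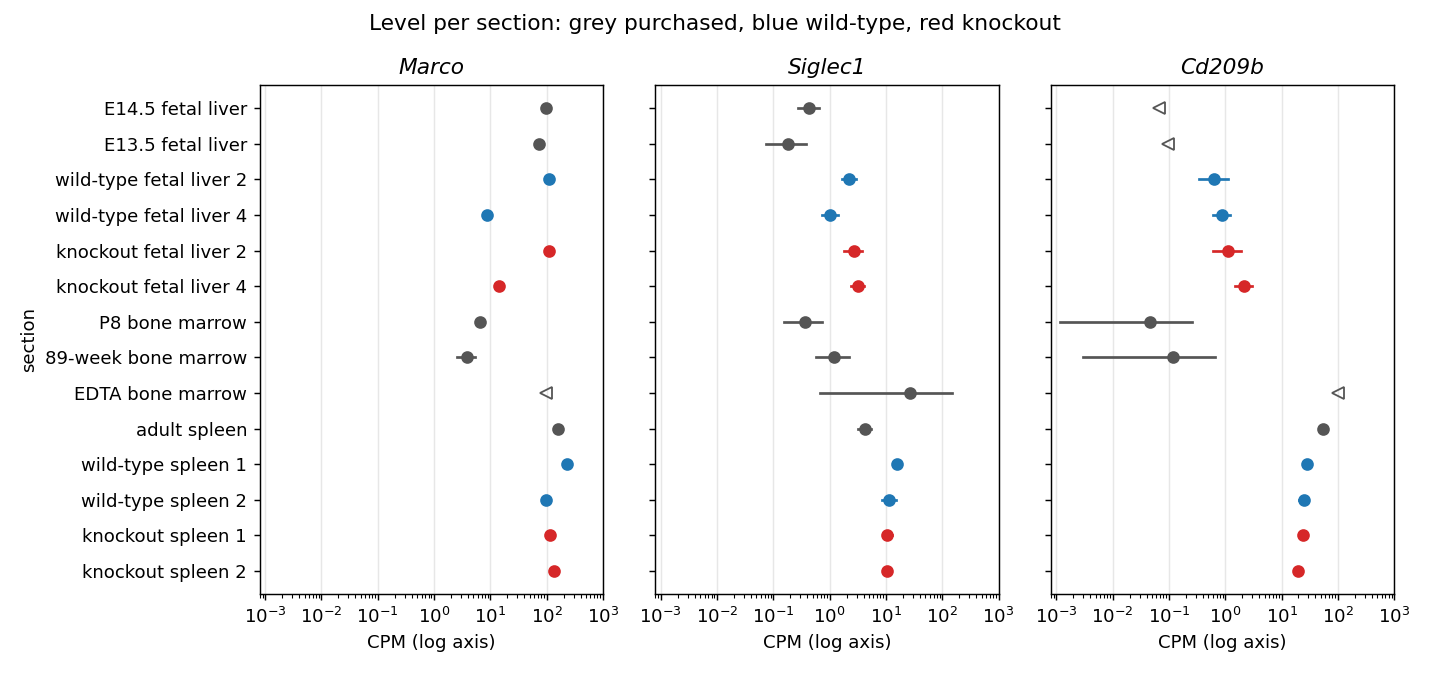
CPM (log axis) of Marco, Siglec1 and Cd209b in each of 14 sections, with grey for purchased, blue for wild-type and red for knockout sections of the cross. Points are sections, lines are 95% Poisson limits, and open triangles mark the upper limit where the count was 0; Cd209b lies between 19.4 and 53.4 CPM in the 5 spleens and at 2.14 CPM or less in the fetal livers.

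The sections were also compared at 1 depth. When each spot was thinned to 2000 UMIs, 3.64 to 9.40% of spots in the 5 spleens held a Cd209b UMI, against 0 to 0.261% in the 6 fetal livers (before thinning 6.01 to 38.0% in spleens and 0 to 6.11% in fetal livers). For Marco, 15.4 to 32.8% of thinned spleen spots held a UMI. The share was 13.6 to 19.8% in the purchased fetal livers and those numbered 2, and 0.744% and 2.72% in wild-type and knockout fetal livers 4. For Siglec1 the share was 0.207 to 3.09% in spleens and 0 to 0.509% in fetal livers, and the adult spleen, at 0.207%, lay within the range of the fetal livers. Thinning left out 554 of 1646 spots in wild-type spleen 2, and at most 44 in the other spleens.

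The low Marco of the fetal livers numbered 4 went with fewer hepatocyte-rich spots in the section. Spots in which 8 hepatocyte genes gave at least 0.5% of the UMIs were 100% of those in the purchased fetal livers and 94.4% and 96.6% of wild-type and knockout fetal livers 2, but 29.4% of wild-type and 62.1% of knockout fetal liver 4. Within such spots Marco was counted at 116 CPM in wild-type fetal liver 2 against 19.3 CPM in number 4, and at 111 CPM in knockout fetal liver 2 against 18.2 CPM in number 4. Outside them it was counted at 1.03 CPM in wild-type and 5.31 CPM in knockout fetal liver 4. Marco was thus higher in spots past this cut, and the livers numbered 4 still held less of it per UMI in those spots. Nearly all spots of the other livers passed the cut, so that it does not rank liver tissue by hepatocyte content. Summed erythroid genes were also lower in wild-type and knockout fetal livers 4, at 30761 and 45980 CPM, than in those numbered 2, at 94310 and 115131 CPM. Whether the spots below the cut were liver tissue was not tested. The summed level of 6 Kupffer cell and fetal macrophage genes (Adgre1, Cd5l, Clec4f, Mrc1, Timd4 and Vsig4, none at 0) was 337 and 275 CPM in wild-type and knockout fetal livers 2, and 63.8 and 85.9 CPM in those numbered 4; its part in the Marco difference was not tested. Cd209b and Siglec1 showed no such rise: in wild-type fetal liver 4 Cd209b was counted at 0.428 CPM in them and 1.16 CPM outside, and Siglec1 at 0.978 and 1.08 CPM.

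Within the spleen, position was read from the lymphoid share, the percentage of a spot's UMIs from the B-cell genes Cd79a and Ms4a1 and the T-cell gene Cd3e. Spots of each section were ranked by it and split into terciles, 3 classes of like size. Cd79a gave 59.5 to 67.4% of the UMIs behind the share, Ms4a1 23.5 to 33.7% and Cd3e 5.66 to 13.0%, so that the ranking was chiefly one of B-cell content. The lymphoid-poor tercile had a share of 0.131 to 0.195%, the middle tercile 0.274 to 0.330% and the lymphoid-rich tercile 0.408 to 0.487% over the 5 spleens.

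All 3 genes were higher in the lymphoid-rich than in the lymphoid-poor tercile in 5 of 5 spleens. Cd209b was counted in the poor, middle and rich terciles at 32.01, 55.1 and 66.4 CPM in the adult spleen, 16.1, 37.4 and 29.98 CPM in wild-type spleen 1, 12.7, 27.5 and 34.6 CPM in wild-type spleen 2, 16.5, 27.2 and 28.3 CPM in knockout spleen 1, and 11.7, 23.7 and 24.0 CPM in knockout spleen 2. The larger step of Cd209b lay between the poor and the middle tercile in each spleen, and in wild-type spleen 1 the rich tercile lay below the middle. Siglec1 was counted at 3.00, 3.72 and 5.41 CPM in the adult spleen, 11.4, 16.9 and 18.6 CPM in wild-type spleen 1, 8.46, 12.0 and 13.7 CPM in wild-type spleen 2, 7.45, 10.9 and 13.6 CPM in knockout spleen 1, and 6.13, 10.1 and 15.9 CPM in knockout spleen 2. The highest Siglec1 level was in the rich tercile in each of the 5 sections. Marco was counted at 104, 168 and 184 CPM in the adult spleen, 185, 282 and 207 CPM in wild-type spleen 1, 66.3, 114 and 117 CPM in wild-type spleen 2, 73.9, 141 and 138 CPM in knockout spleen 1, and 76.5, 163 and 172 CPM in knockout spleen 2. Marco was highest in the middle tercile in wild-type spleen 1 and knockout spleen 1, and in the rich tercile in the other 3.

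In the edgeR fit over 18355 genes with the section as a block, 4551 genes (24.8%) passed an adjusted p of 0.05 in this contrast, 12.6% higher and 12.2% lower in the lymphoid-rich tercile, and all 3 marginal zone macrophage genes were among those higher. The log2 fold change was 0.87 ± 0.11 (SE; adjusted p = 1.4e-05) for Cd209b, 0.76 ± 0.14 (adjusted p = 0.00058) for Siglec1 and 0.63 ± 0.11 (adjusted p = 0.000368) for Marco, against a median of 0.01 over all genes. The ratio of rich to poor tercile ran from 1.71 to 2.72 for Cd209b, from 1.62 to 2.59 for Siglec1 and from 1.12 to 2.24 for Marco, with Marco lowest in wild-type spleen 1. These p-values measure the spread between sections. Of 14 other settings, 12 kept Siglec1 past the threshold and all 14 kept Marco and Cd209b; Siglec1 did not pass with spots thinned to 2000 UMIs (0.69, adjusted p = 0.238) or in the wild-type spleens alone (0.56, adjusted p = 0.0506), and its adjusted p otherwise began at 0.000314. With spots rich in pancreas genes left out, the changes were 0.84 ± 0.12 for Cd209b, 0.74 ± 0.14 for Siglec1 and 0.60 ± 0.10 for Marco.

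The direction over all 5 spleens differed between a ranking by B-cell and one by T-cell content. When spots were ranked by Cd79a and Ms4a1 alone, a split chosen after seeing the data, Cd209b, Siglec1 and Marco were higher in the rich tercile by 1.09, 0.87 and 0.83 on the log2 scale (adjusted p = 7.38e-06, 0.00109 and 0.000118). When spots were ranked instead by the share of 7 T-cell genes, also chosen after seeing the data, Marco was lower in the T-cell-rich tercile (log2 fold change -0.50 ± 0.15, adjusted p = 0.0221) and so was Siglec1 (-0.55 ± 0.16, adjusted p = 0.0183), whereas Cd209b at -0.34 ± 0.18 did not pass (adjusted p = 0.226). Of the 7 T-cell genes, 6 fell and 0 rose from the lymphoid-poor to the lymphoid-rich tercile (median log2 fold change -0.71). This was not so in each section: their summed level in the poor and rich terciles was 364 and 549 CPM in wild-type spleen 1, against 863 and 777 CPM in the adult spleen, 1390 and 906 CPM in wild-type spleen 2, 1389 and 538 CPM in knockout spleen 1 and 1352 and 652 CPM in knockout spleen 2. The step of all 7 T-cell genes was lower in knockout than in wild type in the test of the difference (median -1.34).

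Other genes of the zone gave the setting of this contrast. Of 7 marginal zone B-cell genes, 6 rose and 1 fell in the lymphoid-rich tercile (median 1.04), led by the complement receptor gene Cr2 (2.08), the sphingosine 1-phosphate receptor gene S1pr3 (1.75), Fcrl5 (1.61) and the Notch regulator Dtx1 (1.04). Of 3 genes of the marginal sinus and lymphoid stroma, the B-cell chemokine Cxcl13 (1.77) and the sinus-lining adhesion molecule Madcam1 (1.31) rose, and the lymphotoxin receptor Ltbr fell (-0.55). Of 8 genes of the lymphotoxin and liver X receptor pathways, 4 rose and 2 fell, with the ligands Lta (1.26), Tnf (0.63) and Ltb (0.58) among those higher. All 7 follicular B-cell genes rose (median 1.17), the direction set by the ranking itself. A ranking by B-cell content favours the marginal zone B-cell genes too, so that their rise does not by itself mark the zone.

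Macrophage genes of the red pulp went the other way. All 8 of their list fell in the lymphoid-rich tercile (median -1.04), among them the haemoglobin scavenger receptor Cd163 (-1.83), the haem oxygenase Hmox1 (-1.28), the engulfment receptor Mertk (-1.02) and the red pulp macrophage factor Spic (-0.97). All 3 C1q subunit genes fell as well (median -1.37), and so did all 9 erythroid and all 8 neutrophil genes. Of 6 Kupffer cell and fetal macrophage genes, the phosphatidylserine receptor Timd4 rose (1.21) while Mrc1 (-1.54), Cd5l (-1.22) and Adgre1 (-1.06) fell. All 6 dendritic cell genes fell, 5 of 7 interferon-stimulated genes and all 9 pancreas genes fell, 1 of 4 adipocyte genes fell, and none of 8 hepatocyte genes passed.

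Relatives of the 3 receptors moved in both directions. In the CD209 family, Cd209b rose, Cd209a, a dendritic cell lectin, fell (-0.63), and the other 5 genes did not pass. Among 5 class A scavenger receptors, Marco rose, the ferritin receptor Scara5 fell (-0.61), and the macrophage receptor Msr1 stood at -0.11 (adjusted p = 0.747). Among 9 Siglec genes, 4 rose, namely Siglec1, Cd33 (0.50) and the B-cell inhibitors Cd22 (1.25) and Siglecg (1.04), and 2 fell, Siglece (-1.52) and Siglech (-0.51).

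**Figure D2:**
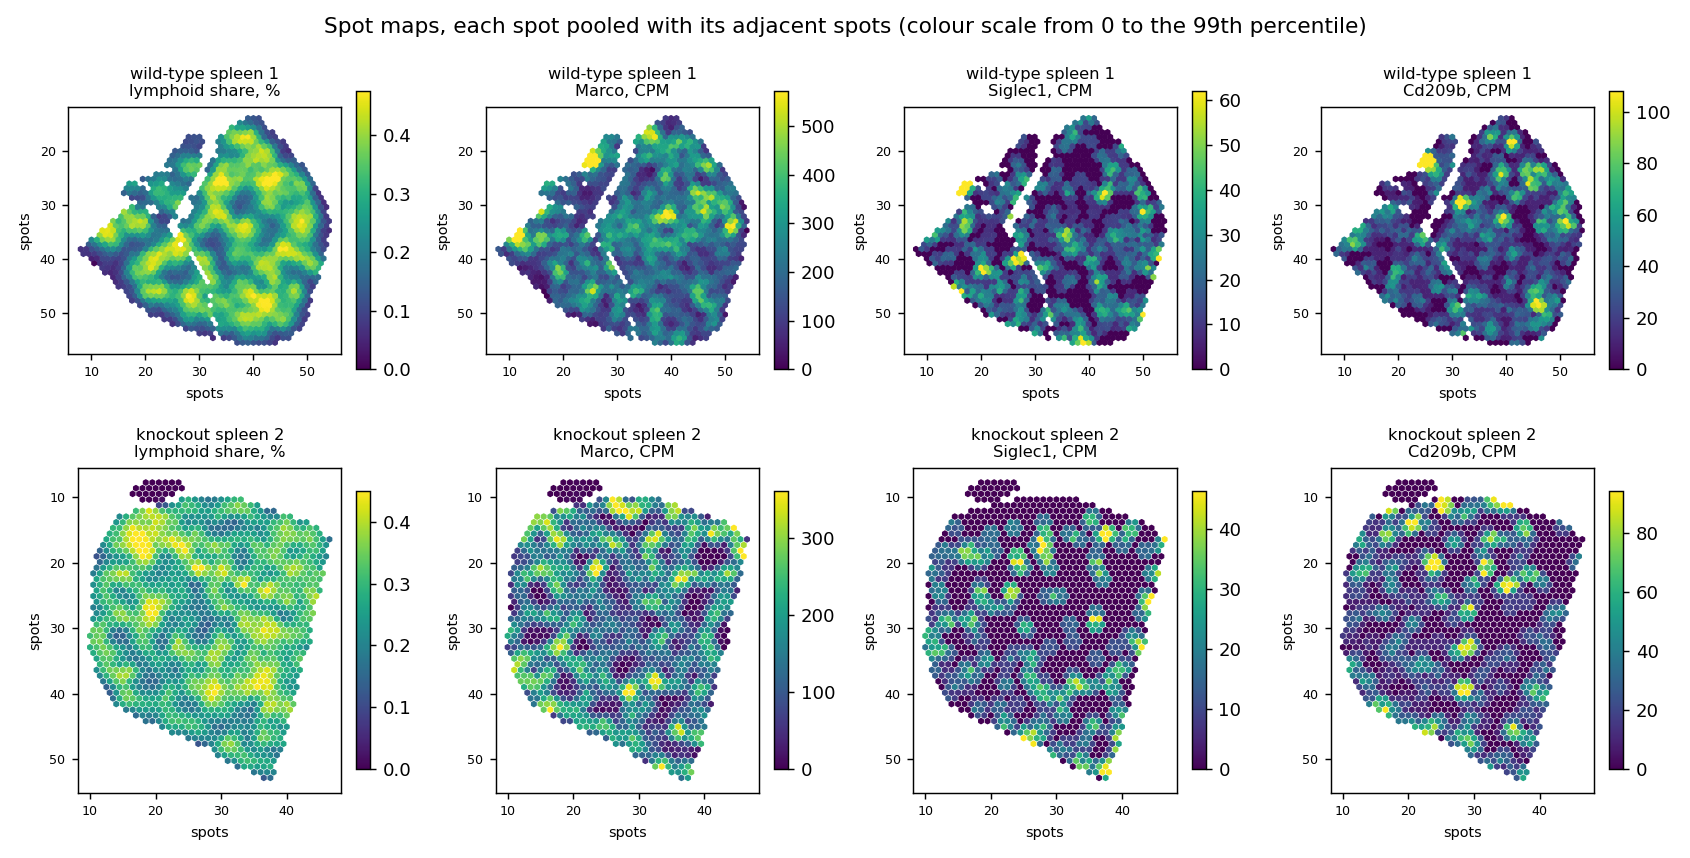
Maps of the lymphoid share (%) and of Marco, Siglec1 and Cd209b (CPM) in the deepest wild-type and the deepest knockout spleen, with axes in spot units and each spot pooled with its adjacent spots. The lymphoid share forms broad patches, whereas the highest Marco, Siglec1 and Cd209b lie in small scattered groups of spots, and each panel has its own colour scale. Siglec1 and Cd209b rest on 316 and 566 counts over 1426 spots in wild-type spleen 1. In knockout spleen 2 they rest on 191 and 354 counts over 1371 spots. The part of counting error in the scatter was not tested.

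A finer split into quintiles, 5 classes from the least (1) to the most lymphoid (5), showed where along the ranking each gene peaked. Cd209b was highest in quintile 4 in 4 spleens and in quintile 3 in wild-type spleen 1, and never in the most lymphoid quintile. In those 4 spleens its 95% Poisson limits overlapped between quintiles 4 and 5, and in wild-type spleen 1 between quintiles 3 and 4. In the adult spleen it ran 24.6, 43.6, 53.0, 68.2 and 64.4 CPM from the least to the most lymphoid quintile, and in wild-type spleen 1 13.7, 23.4, 39.9, 33.6 and 28.2 CPM. Marco was highest in quintile 3 in 2 spleens, in quintile 4 in 2 and in quintile 5 in wild-type spleen 2. In wild-type spleen 2 and both knockout spleens, the limits of its highest quintile overlapped those of a neighbouring one. The clearest peak of Marco was in wild-type spleen 1, where it ran 154, 246, 296, 240.4 and 184 CPM. Siglec1 was highest in quintile 5 in 3 spleens and in quintile 4 in the adult spleen and wild-type spleen 2. Its limits for quintiles 4 and 5 overlapped in each spleen. In knockout spleen 2 Siglec1 ran 3.96, 9.47, 9.45, 14.0 and 17.1 CPM.

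**Figure D3:**
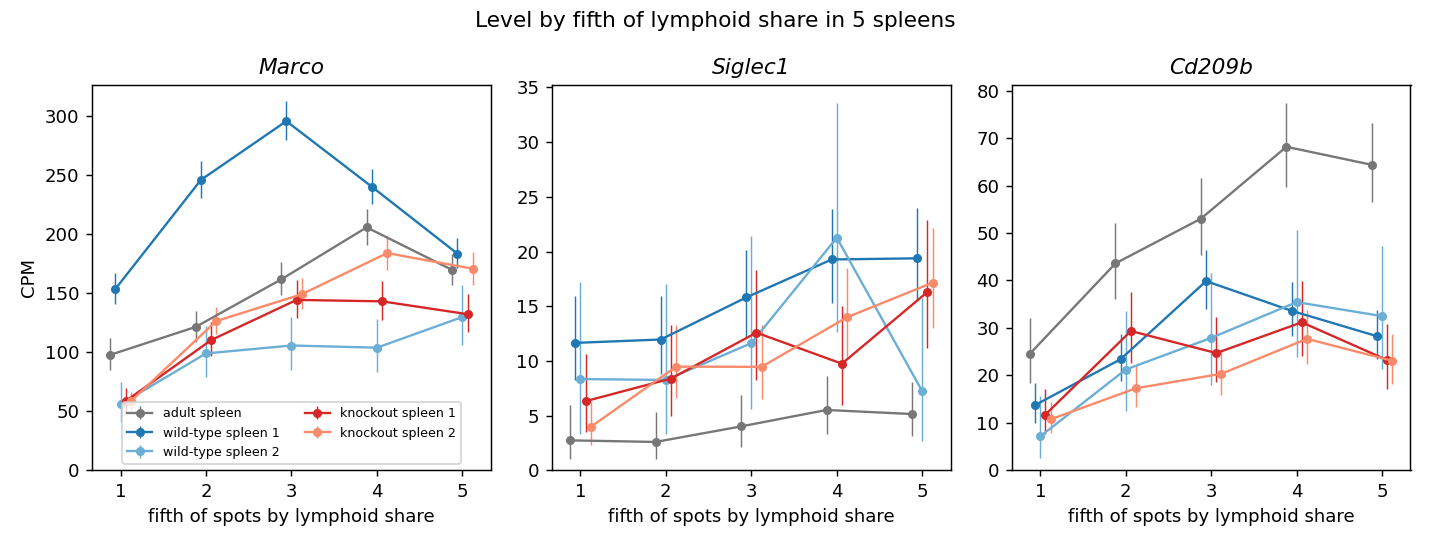
CPM of Marco, Siglec1 and Cd209b in quintiles of spots ranked by lymphoid share (1 lowest, 5 highest) in 5 spleens, with 95% Poisson limits as bars. Each gene is lowest or near its lowest in quintile 1, and the peak of Marco in wild-type spleen 1 is 296 CPM in quintile 3. Cd209b turns down after quintile 4 in 4 spleens, with overlapping limits for quintiles 4 and 5 in each.

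A middle peak was not established by the test across genes. The middle tercile against the mean of the outer terciles gave 0 calls among 18355 genes in edgeR (0%), with 659 genes at an unadjusted p under 0.05 and 1 call in DESeq2. The log2 fold change was 0.39 ± 0.09 for Cd209b, 0.36 ± 0.09 for Marco and 0.03 ± 0.12 for Siglec1, with an adjusted p of 1.000 for each. Without wild-type spleen 1, Marco at 0.35 passed (adjusted p = 0.0171, against up to 1.000 over 9 other settings).

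To give position as 1 number per section, the 5 quintiles were placed at 10 to 90 on a scale of lymphoid rank and averaged with the CPM of each quintile as weight, so that an even spread gives 50. The position index of Cd209b was 58.2, 55.7, 60.4, 54.1 and 57.1 in the adult spleen, wild-type spleens 1 and 2 and knockout spleens 1 and 2. That of Siglec1 was 57.8, 55.8, 53.8, 58.0 and 61.4, and that of Marco 56.0, 51.0, 56.2, 56.1 and 58.2. All 15 values lay above 50, and Marco in wild-type spleen 1 lay closest to it. Ranked by the share of the T-cell genes instead, the index of Marco was 46.6, 52.6, 47.5, 43.7 and 42.5, that of Siglec1 47.6, 49.8, 42.0, 43.2 and 44.6, and that of Cd209b 45.7, 55.5, 44.4, 45.9 and 43.4 in the same order. Wild-type spleen 1 thus did not share the lower Marco and Cd209b of T-cell-rich spots, and the knockout spleens had the lowest Marco. Of the 3 pairs compared over 5 spleens, Marco minus Siglec1 was -1.87 ± 2.69 (SD of the differences), Marco minus Cd209b -1.61 ± 3.05 and Siglec1 minus Cd209b 0.260 ± 4.42. Exact two-sided sign-flip permutation tests gave p = 0.25, 0.312 and 0.938 (adjusted 0.469, 0.469 and 0.938), where the smallest p that 5 sections allow is 0.0625. Marco minus Siglec1 was -3.095 when the share was taken over the broad list of 10 lymphoid genes and -3.27 when it was pooled with adjacent spots, with Marco lower in 5 of 5 spleens in each (exact p = 0.0625 for both, adjusted 0.188 and 0.0938), and -0.70 with thinned spots (exact p = 0.938). Siglec1 minus Cd209b was 1.80 with the pooled share, with Siglec1 higher in 5 of 5 spleens (exact p = 0.0625, adjusted 0.0938). It was 1.55 with the broad list and -1.54 with thinned spots (exact p = 0.25 and 0.5).

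Geometry on the array gave a second view. The lymphoid-rich area was the top tercile of spots after each was pooled with its adjacent spots, and border spots were those on either side of its edge. Since the share came chiefly from B-cell genes, this area was one of high B-cell content. Its edge need not be the edge of the white pulp, and the part of T-cell areas in border and outside spots was not tested. Cd209b was counted at 61.8 CPM in border and 44.9 CPM in all other spots of the adult spleen, 37.4 and 19.4 CPM in wild-type spleen 1, 28.6 and 19.9 CPM in wild-type spleen 2, 24.9 and 22.7 CPM in knockout spleen 1, and 22.1 and 16.4 CPM in knockout spleen 2. Marco was counted at 185 and 129 CPM, 258 and 194 CPM, 108 and 86.2 CPM, 124 and 108 CPM, and 151 and 115 CPM in the same order. Siglec1 was counted at 4.66 and 3.70 CPM, 17.9 and 13.8 CPM, 14.9 and 6.63 CPM, 10.99 and 10.1 CPM, and 12.0 and 8.77 CPM. Each gene was higher in border spots in 5 of 5 spleens. Border spots also had the higher lymphoid share, 0.320 to 0.376% against 0.215 to 0.286%, and the part of that difference in the result was not tested.

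In the edgeR fit over 18437 genes, 974 genes (5.28%) passed in the border contrast, 2.29% higher and 2.99% lower in border spots. Marco (log2 fold change 0.30 ± 0.05, adjusted p = 0.00311) and Cd209b (0.46 ± 0.09, adjusted p = 0.0108) were among those higher. Siglec1 at 0.31 ± 0.12 did not pass (adjusted p = 0.197, 95% interval 0.06 to 0.55). Without the adult spleen, Cd209b at 0.45 did not pass either (adjusted p = 0.0667, within 0.00133 to 0.176 over 9 other settings). Of the marginal zone B-cell genes 5 of 7 rose at the border (median 0.43), with Cr2 at 0.59, and Madcam1 (0.40), Timd4 (0.44) and Lta (0.36) also rose. All 7 follicular B-cell genes rose there as well (median 0.39), so that the rise was not particular to marginal zone genes. All 9 erythroid and all 8 neutrophil genes fell. Of the red pulp macrophage genes 7 of 8 fell, with Cd163 at -0.70, and of the 7 T-cell genes none passed.

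Spots were then classed by steps from the edge of the lymphoid-rich area. Cd209b was highest at the inner edge in the adult spleen, wild-type spleen 2 and knockout spleen 1, 1 step outside in wild-type spleen 1 (38.5 CPM) and inside in knockout spleen 2 (25.9 CPM). Siglec1 was highest at the inner edge in 3 spleens, inside in knockout spleen 1 and 1 step outside in wild-type spleen 2. Marco peaked at 291 CPM 1 step outside the area in wild-type spleen 1, at the inner edge in the adult spleen (197 CPM) and wild-type spleen 2 (116 CPM), and inside the area in knockout spleens 1 (139 CPM) and 2 (178 CPM). From the inner edge to the inside, Marco went from 197 to 146 CPM in the adult spleen, from 222 to 141 CPM in wild-type spleen 1 and from 116 to 86.6 CPM in wild-type spleen 2, but from 126 to 139 CPM in knockout spleen 1 and from 160.1 to 178 CPM in knockout spleen 2. The wild-type sections thus went down and the knockout sections up. This was 1 of 18 contrasts between neighbouring zones of the cross spleens, picked for that pattern, and it was not tested. The 95% Poisson limits of Marco overlapped between edge and inside in wild-type spleen 2 and both knockout spleens, where the inside rested on 29, 105 and 226 Marco counts.

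**Figure D4:**
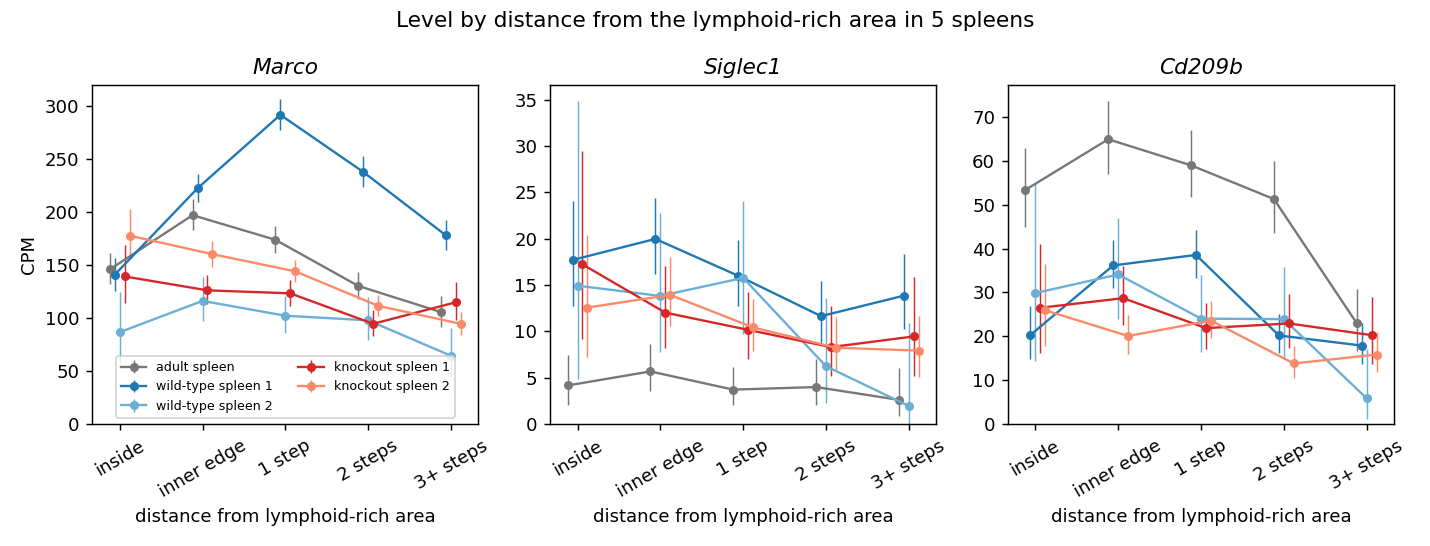
CPM of Marco, Siglec1 and Cd209b inside the lymphoid-rich area, at its inner edge and 1, 2 and 3 or more spot steps outside it, in 5 spleens, with 95% Poisson limits as bars. Marco is highest 1 step outside in wild-type spleen 1 (291 CPM) and inside in both knockout spleens, and Cd209b falls to 22.99 CPM at 3 or more steps in the adult spleen.

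Marco and Cd209b also met in the same spots. After thinning to 2000 UMIs, Marco was counted in spots with and without a Cd209b UMI at 385 and 142 CPM in the adult spleen, 321 and 214 CPM in wild-type spleen 1, 206 and 86.0 CPM in wild-type spleen 2, 213 and 110 CPM in knockout spleen 1, and 207 and 128 CPM in knockout spleen 2. Marco was thus 1.501 to 2.71 times as high in Cd209b spots in each of the 5 spleens. Cd209b was 1.81 to 3.32 times as high in spots with a Marco UMI. Spots with a Siglec1 UMI were fewer, 2 to 44 per spleen against 47 to 91 with a Cd209b UMI. In them Marco was 1.52, 1.04, 1.18, 1.48 and 0.951 times as high in the same order, on 1 to 20 Marco counts. Cd209b was 1.32 to 6.87 times as high in them, on 1 to 5 Cd209b counts. These ratios describe spots of single sections, which are not replicates.

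C1qa genotype was compared next, since C1q is a ligand described for Cd209b and marks other macrophages of the spleen. In spleen, Marco averaged 163 ± 90.1 CPM (SD, n = 2) in wild type and 126 ± 12.1 CPM in knockout. Siglec1 averaged 13.6 ± 3.18 CPM and 10.5 ± 0.0815 CPM, and Cd209b 26.6 ± 2.51 CPM and 21.6 ± 3.18 CPM. Every knockout level of Siglec1 and Cd209b lay below both wild-type levels, whereas the knockout levels of Marco lay between the 2 wild-type levels. For Siglec1, the 95% Poisson limits of wild-type spleen 2 (8.38 to 15.1 CPM) overlapped those of knockout spleens 1 (8.71 to 12.7) and 2 (9.03 to 12.1). The same held for Cd209b, with limits of 20.3 to 30.1 CPM against 21.0 to 27.0 and 17.4 to 21.5.

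In the edgeR fit over 18895 genes, 3886 (20.6%) passed between genotypes in spleen, 13.8% higher and 6.79% lower in knockout, and none of the 3 marginal zone macrophage genes did. The log2 fold change of knockout against wild type was -0.12 ± 0.25 for Marco (adjusted p = 0.718, 95% interval -0.62 to 0.37), -0.16 ± 0.24 for Siglec1 (adjusted p = 0.627, interval -0.62 to 0.31) and -0.07 ± 0.18 for Cd209b (adjusted p = 0.798, interval -0.43 to 0.29), beside a median of -0.08 over all genes. Marco rested on single libraries: without wild-type spleen 1 it was higher in knockout by 0.61 (adjusted p = 0.0111), and without wild-type spleen 2 it was lower (log2 fold change -0.60, adjusted p = 0.00146, against up to 0.956 over 11 other settings). Without wild-type spleen 1, Siglec1 and Cd209b stood at 0.15 and 0.04. With upper-quartile scaling, which moved the median of all genes to -0.37 and the calls from 2603 higher and 1283 lower to 1197 and 4400, the values were -0.43 for Marco, -0.45 for Siglec1 and -0.36 for Cd209b, with none past the threshold.

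Other cell types moved with genotype in these sections. All 9 pancreas genes tested were higher in knockout, and 8 of 8 neutrophil genes (median -2.36) and 7 of 9 erythroid genes were lower. Their part in the levels of Marco, Siglec1 and Cd209b was not tested, but with pancreas-rich spots left out the 3 values were -0.11, -0.14 and -0.02. Of 7 marginal zone B-cell genes 3 were higher in knockout, namely Cr2 (1.47), Fcrl5 (0.90) and S1pr3 (0.52), and of 8 red pulp macrophage genes Cd163 (0.72), Vcam1 (0.64) and Spic (0.65). In the receptor families, Cd209a (0.54) and Colec12 (0.52) were higher, and so were Siglecg (1.21) and Siglech (0.73), while Cd5l (-1.03) was the only lower gene of the Kupffer cell list. C1qb was higher (0.83) beside the deleted C1qa. Of 3 stroma genes Cxcl13 (1.44), of 8 lymphotoxin and liver X receptor genes Nr1h2 (0.82), 2 of 7 follicular B-cell, 2 of 7 T-cell and 4 of 6 dendritic cell genes were higher. None of 7 interferon-stimulated or 4 adipocyte genes passed, and 1 of 8 hepatocyte genes was lower.

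The genotypes were also compared at like lymphoid rank, which was not like tissue. In the lymphoid-poor tercile, summed pancreas genes stood at 76.8 CPM in wild-type spleen 1, 1210 CPM in wild-type spleen 2 and 11534 and 75796 CPM in the knockout spleens, and summed neutrophil genes at 1452 and 1144 CPM against 88.0 and 155 CPM. There all 9 pancreas genes and 3 of 7 T-cell genes were higher in knockout, and 8 of 8 neutrophil and 7 of 9 erythroid genes lower. In the middle and rich terciles 8 and 5 of 8 neutrophil genes and 7 and 5 of 9 erythroid genes were lower, and 1 and 2 pancreas genes higher. The part of these cell types in the values of the receptors was not tested. In the lymphoid-poor tercile, where 15.7% of 18208 genes passed (11% higher, 4.73% lower), the log2 fold change was -0.50 ± 0.38 for Marco, -0.36 ± 0.33 for Siglec1 and 0.16 ± 0.28 for Cd209b. In the middle tercile, where 12% of 18206 genes passed (8.9% higher, 3.13% lower), it was -0.21 ± 0.25, -0.34 ± 0.28 and -0.22 ± 0.21. In the rich tercile, where 10.2% of 18167 genes passed (8.05% higher, 2.2% lower), it was 0.13 ± 0.20, 0.04 ± 0.26 and -0.06 ± 0.21. None of the 9 values passed, with adjusted p from 0.333 to 0.937. Leaving out a wild-type spleen made Marco pass in each tercile: without wild-type spleen 2 it was -1.06 in the poor and -0.67 in the middle tercile (adjusted p = 0.000137 and 0.000353), and without wild-type spleen 1 it was 0.61 in the middle and 0.59 in the rich tercile (adjusted p = 0.0207 and 0.0276), while other settings ran up to an adjusted p of 0.930.

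**Figure D5:**
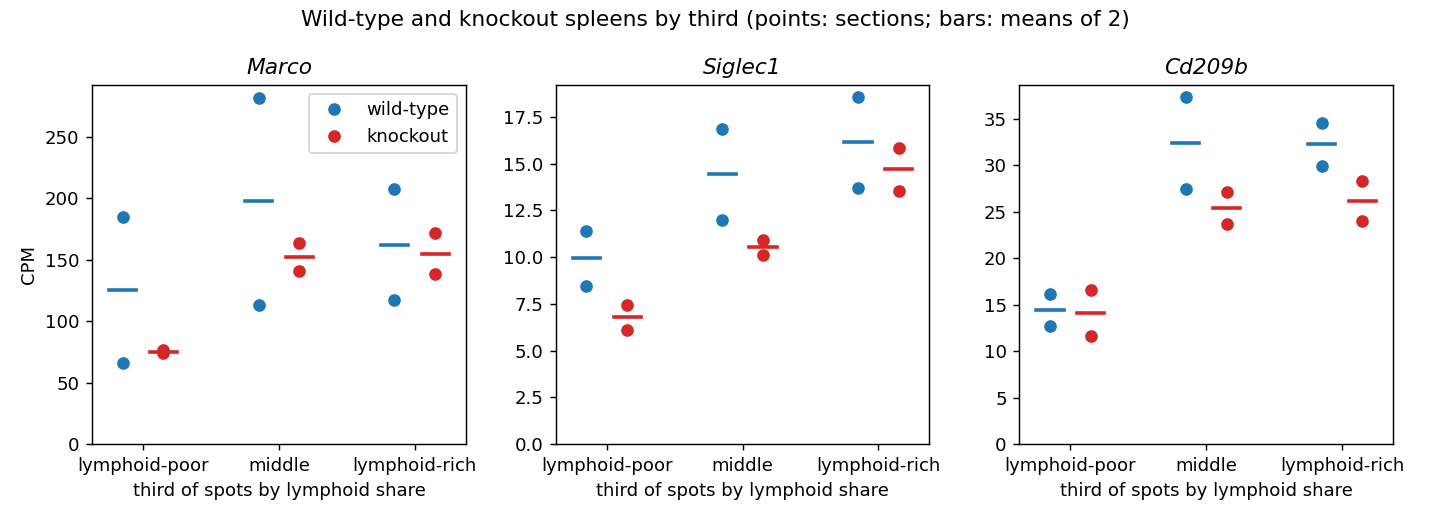
CPM of Marco, Siglec1 and Cd209b in terciles of spots by lymphoid share, in wild-type (blue) and knockout (red) spleens of the cross, with points for sections and bars for means of 2. The wild-type points of Marco are far apart, 66.3 and 185 CPM in the poor tercile, around knockout points of 73.9 and 76.5 CPM.

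The step from poor to rich tercile was compared between genotypes as an interaction. It was larger in knockout by 0.66 ± 0.22 on the log2 scale for Marco (adjusted p = 0.168) and by 0.48 ± 0.30 for Siglec1 (adjusted p = 0.515), and stood at -0.10 ± 0.26 for Cd209b (adjusted p = 0.915), where 468 of 18462 genes (2.53%) passed, 1.43% higher and 1.1% lower. Without wild-type spleen 2, which left wild-type spleen 1 as the lone wild type and its spread taken from the knockouts, Marco at 0.94 passed (adjusted p = 2.21e-14, against up to 1.000 over 7 other settings) and so did 2864 genes in all. Without wild-type spleen 1, Marco stood at 0.11 (adjusted p = 0.956), so that its larger step in knockout rested on that section. Other cell types differed in the same contrast, with all 7 T-cell genes (median -1.34) and 8 of 9 pancreas genes (median -5.93) called lower, and 6 of 8 neutrophil (median 1.83) and 4 of 9 erythroid genes (median 1.13) called higher. Their part in the Marco value was not tested, and with pancreas-rich spots left out it was 0.61 (adjusted p = 0.140). The position index of knockout minus wild type was 3.59 for Marco, 4.90 for Siglec1 and -2.44 for Cd209b, with exact two-sided permutation p = 0.667, 0.333 and 0.667 (adjusted 0.667 for each), where 2 sections against 2 allow no p under 0.333.

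In fetal liver the genotypes were compared with and without the litter, since same-numbered sections came from littermates. Marco averaged 60.4 ± 73.4 CPM (SD, n = 2) in wild type and 61.2 ± 66.1 CPM in knockout, with the section numbered 2 high and that numbered 4 low in both genotypes. Siglec1 averaged 1.63 ± 0.842 CPM and 2.92 ± 0.331 CPM, and Cd209b 0.751 ± 0.152 CPM and 1.63 ± 0.718 CPM. Both knockout levels of Siglec1 and Cd209b lay above both wild-type levels. They rested on 31 to 53 Siglec1 and 13 to 36 Cd209b counts per section, and the 95% Poisson limits of the sections numbered 2 overlapped between genotypes. The 7 T-cell genes summed to 9.80 to 23.1 CPM in the same livers, and whether such low levels lie above background was not tested. In edgeR, 0 of 18986 genes (0%) passed, with 138 at an unadjusted p under 0.05 and 7 calls in DESeq2. The log2 fold change was -0.18 ± 1.47 for Marco (95% interval -3.07 to 2.70), 0.48 ± 0.82 for Siglec1 (-1.13 to 2.08) and 0.85 ± 0.72 for Cd209b (-0.57 to 2.26), with an adjusted p of 1.000 for each. With the litter as a block, 157 genes passed, and the values were 0.12 ± 0.28 for Marco (adjusted p = 0.935), 0.73 ± 0.67 for Siglec1 and 0.86 ± 0.95 for Cd209b (adjusted p = 0.919 for both). These fits used whole sections, whose share of hepatocyte-rich spots differed. In hepatocyte-rich spots alone, without the block, the values were -0.23, 0.48 and 1.17 for Marco, Siglec1 and Cd209b, none past the threshold. Without wild-type fetal liver 2, which removed the only wild-type section rich in Marco, Marco at 3.48 passed (adjusted p = 0.00606, against up to 1.000 over 10 other settings).

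Whether the genotype difference itself differed between tissues was tested as an interaction over all 8 cross sections. Of 19180 genes 0 passed (0%), with 2018 at an unadjusted p under 0.05 and 9 calls in DESeq2, and 1409 passed with a litter term. The difference in spleen exceeded that in fetal liver by 0.04 ± 1.957 for Marco (adjusted p = 0.996), -0.63 ± 0.88 for Siglec1 (adjusted p = 0.760) and -0.90 ± 0.48 for Cd209b (adjusted p = 0.455), none past the threshold with or without that term.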

How the data were processed

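Spatial transcriptomic counts were analysed for 14 mouse sections, 1 library each, on 10x Genomics Visium with probes on formalin-fixed, paraffin-embedded tissue. The authors deposited raw UMI counts per gene and spot, not normalized, made with Cell Ranger 4 or Space Ranger 2.1.1, 3.1.2 or 4.0.1 per the file headers and mapped to mm10 per the labels. The deposited gene, barcode and spot position tables hold names, in-tissue marks and array coordinates, and were used as other values. Processing that differed between purchased and cross sections, and 1000-gene filtering of spots, can change levels, so that no test compared the sets. Tests over 5 spleens held the purchased adult spleen beside the 4 spleens of the cross, with zones or genes compared within each section.

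Spots in tissue with at least 1000 genes were kept and summed per section, or per section and tercile, quintile or border class. CPM carry exact 95% Poisson limits, and where a gene had no count the limit was set at 3 counts in that section, and both cover counting error only. Summed counts were tested with edgeR 4.0.16 (TMM scaling, low genes removed by filterByExpr, then the quasi-likelihood test) in R 4.3.3 with limma 3.58.1, at a Benjamini-Hochberg adjusted p of 0.05 over all genes. DESeq2 1.42.0 was the alternative. Cd79a, Ms4a1 and Cd3e, which set the ranking, were left out of the calls within spleens. Single values were compared with exact permutation tests (scipy 1.17.1). The fits were also run on simulated counts as a check of the code. Those counts had the same spread in every fit and no section or litter effect, unlike the data.

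Fetal livers 2 and 4 are litters by the study's supplement, and same-numbered sections deviated together (r = 0.712 over 17973 genes). Spleen numbers share only a number. No replicate pair held duplicate libraries (lowest chi-square per degree of freedom 21.8).

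The 3 genes and the gene lists were chosen with earlier results of these data known. Named genes were the 3 receptors, at most 4 per list by smallest adjusted p, and the 5 genes most alike to each; further members of small counts were named after their values were seen. No column of another series was present.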

Additional observations from a re-analysis of the deposited data

Results flagged for a closer look

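Off-tissue spots of the purchased sections, which no comparison used, held counts of the same genes above the level that 3 counts give. In the adult spleen they held 150.4 CPM of Marco, 5.50 CPM of Siglec1 and 46.3 CPM of Cd209b, close to the 157, 4.19 and 53.4 CPM in tissue, and 31.1% of all UMIs lay off the tissue. In the E14.5 fetal liver they held 69.3 CPM of Marco and 0.269 CPM of Siglec1, and in the E13.5 fetal liver 54.0 and 0.429 CPM. In bone marrow they held 7.87 CPM of Marco at P8, and 2.50 CPM of Marco and 0.715 CPM of Siglec1 at 89 weeks. Spots off tissue of the cross sections were not analysed here, and the part of such counts in the zones within the spleens was not tested.

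Of 18 contrasts between neighbouring zones of the cross spleens, 1 ran one way in both wild-type and the other way in both knockout sections. The ratio of Marco inside the lymphoid-rich area to its inner edge was 0.633 and 0.746 in wild-type spleens 1 and 2, and 1.10 and 1.11 in knockout spleens 1 and 2. The mean log2 ratio was 0.69 higher in knockout. The purchased adult spleen stood at 0.740. This difference was noticed in the data and was not tested, and wild-type spleen 2 rested on 29 Marco counts inside the area.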

How the results depend on the processing

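Over all results, 418 alternatives were run, of which 332 kept direction and side of the threshold (or a count within 1.5 times). The cause of the other changes was not tested. Lymphoid-rich against lymphoid-poor spots kept all 3 receptors past the threshold in the 14 planned settings (adjusted p 5.86e-09 to 0.00125 for Cd209b, 1.39e-09 to 0.0164 for Marco) except for Siglec1 with spots thinned to 2000 UMIs (0.69, adjusted p = 0.238) and in wild-type spleens only (0.56, adjusted p = 0.0506). Calls went to 2903 with quartiles in place of terciles and 1553 with thinned spots. By T-cell share, chosen after seeing the data, Marco, Siglec1 and Cd209b were -0.50, -0.55 and -0.34. Leaving out single sections gave 3092 to 4244 calls, 0.78 to 0.94 for Cd209b, 0.56 to 0.84 for Marco and 0.63 to 0.91 for Siglec1.

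For the border, DESeq2 gave 529 calls, the broad 10-gene lymphoid list 1555, and the top 50% of spots in place of the top tercile 105, with Siglec1 at -0.028 and Cd209b at 0.31 not past the threshold. Leave-one-out gave 609 to 785 calls, Cd209b 0.33 to 0.53, Marco 0.24 to 0.34 and Siglec1 0.23 to 0.36. For the middle tercile against the outer, DESeq2 gave 1 call, and leave-one-out 0 to 1 calls, Cd209b 0.28 to 0.46, Marco 0.34 to 0.40 and Siglec1 -0.019 to 0.076.

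For spleen genotype, counts thinned to the smallest section gave 2543 calls, with Siglec1 at 0.093 and Cd209b at 0.066. Leave-one-out gave 240 to 4972 calls, the lowest without knockout spleen 2, with Marco -0.60 to 0.61, Siglec1 -0.34 to 0.15 and Cd209b -0.16 to 0.045. In terciles, DESeq2 gave 1572, 1209 and 1031 calls in the poor, middle and rich tercile. Upper-quartile factors gave Cd209b -0.19 in the poor tercile, and Marco -0.13 and Siglec1 -0.21 in the rich tercile. The replicate block gave 1109 calls in the rich tercile and changed no call of the 3 receptors. Leave-one-out gave, in the poor tercile, 598 to 4911 calls, Marco -1.06 to 0.54, Siglec1 -0.53 to 0.020 and Cd209b 0.0061 to 0.47; in the middle tercile, 163 to 2974 calls, Marco -0.67 to 0.61, Siglec1 -0.48 to -0.0083 and Cd209b -0.36 to 0.061; and in the rich tercile, 242 to 2958 calls, Marco -0.17 to 0.59, Siglec1 -0.16 to 0.30 and Cd209b -0.23 to 0.036. For zone by genotype, DESeq2 gave 98 calls and the broad list 813, and leave-one-out 215 to 2864 calls, Marco 0.11 to 0.94, Siglec1 0.31 to 0.65 and Cd209b -0.64 to 0.079.

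For fetal liver genotype, DESeq2 gave 7 calls, the replicate block 157 with Marco at 0.12, hepatocyte spots 1, and both together, chosen after seeing the data, 27. Leave-one-out gave 0 to 109 calls, Marco -3.19 to 3.48, Siglec1 -0.20 to 1.75 and Cd209b 0.64 to 1.08. For tissue by genotype, DESeq2 gave 9 calls and the litter term 1409 with Marco at -0.23, and leave-one-out 0 to 2 calls, Marco -3.55 to 3.04, Siglec1 -1.81 to 0.11 and Cd209b -1.09 to -0.68.

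The position index of knockout minus wild type was -6.98 for Marco and -1.99 for Siglec1 by T-cell share, and for Siglec1 -0.385 with the share pooled over adjacent spots and -4.40 with thinned spots. Marco minus Siglec1 was 1.14 and Siglec1 minus Cd209b -1.57 by T-cell share, and the latter -1.54 with thinned spots. Where a genotype was left with 1 section, that section was assumed to vary like the others. Siglec1, with 48 counts in wild-type spleen 2, and all genotype results, with 2 sections per group, are limited by depth and number.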

Other observations

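The genes most like each receptor along the lymphoid ranking were found over 25 values (5 spleens by 5 quintiles, log2 of CPM plus 1, centred within section) among 10494 genes of at least 10 CPM on average. The 25 values share libraries and depth, so that r is a description. For Marco these were Igfbp3, an insulin-like growth factor binding protein (r = 0.908), Zfp821 (0.888), Timd4, a receptor for dying cells (0.875), Dusp16, a phosphatase of stress kinases (0.875), and BC035044 (0.873). For Cd209b they were Lrrk2, a kinase (0.892), Calhm2 (0.890), Fchsd2 (0.889), Dmxl1 (0.885) and Themis2, a signalling adaptor of B cells and macrophages (0.885). For Siglec1 they were Wdfy2 (0.908), Rfk, a riboflavin kinase (0.891), BC048403 (0.887), Gpn2 (0.884) and Atxn1 (0.884). Between the receptors themselves, r was 0.869 for Marco and Cd209b, 0.669 for Marco and Siglec1 and 0.616 for Siglec1 and Cd209b.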
